A study of Homo sapiens with 2 samples.

Results

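The 10 genes described here encode regulators of canonical Wnt signalling, namely AXIN2, RNF43 and ZNRF3, which act as negative feedback genes, and AXIN1, APC, GSK3A, GSK3B, LEF1, TCF7 and TCF7L2. They were chosen by name from pathway knowledge, and they are 10 of the 19974 protein-coding genes on chromosomes 1 to 22 and X in the RefSeq table. The cells were Ishikawa, a line established from human endometrial carcinoma. In one culture they had been infected with a lentivirus that over-expresses TCF19, and in the other they had received a control lentivirus. Both were selected with puromycin and precipitated with the same antibody against TCF19, so the comparison is of TCF19 over-expression with negative control cells that still hold their own TCF19. Each group had 1 library and 1 list of called peaks, so no test of the condition was possible. Neither the promoter that drives the transgene nor whether the cells were clonal is given in the sources used here.

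In the absence of a Wnt ligand, a destruction complex built on AXIN and APC holds β-catenin while the GSK3 kinases phosphorylate it, which marks it for degradation. When a ligand engages Frizzled receptors the complex is inhibited, and β-catenin enters the nucleus and binds the LEF/TCF factors at target genes. AXIN2, RNF43 and ZNRF3 are themselves such targets: AXIN2 rebuilds the destruction complex, and the membrane ubiquitin ligases RNF43 and ZNRF3 remove Frizzled receptors from the cell surface. TCF19 shares a name with the LEF/TCF factors but is not one of them; it carries a forkhead-associated domain and a PHD finger, a fold that reads histone tails. Genes of this pathway, among them RNF43 and the gene of β-catenin, are recurrently mutated in endometrial cancer.

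Peaks were recorded as summits, the position of highest read stacking, and each summit is described by its pileup, the number of reads (extended to the fragment length) that cover it. Pileups were recovered from the peak statistics as whole reads. The overexpression list held 112212 summits and the control list 170334. The genome-average pileup was 1.43 reads in the overexpression library and 1.58 reads in control, a ratio of 0.903. The gene TCF19 itself had 3 summits, of 53 to 143 reads, in the overexpression library and 0 in control. The part of reads from the TCF19 transgene in these summits was not tested. Median summit pileups were 13 reads in the overexpression library and 12 in control over all chromosomes used, so single summits rest on few reads.

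The promoters that carry the comparison at the starts are printed here because a called interval reached them in both libraries (APC outer and inner, GSK3B, TCF7L2 internal), because a summit lay beside the start in the overexpression library alone (GSK3A), or because a negative feedback gene had no summit there in either library (RNF43). Each runs from 250 bases before to 50 bases after the annotated start, 5′ to 3′ on the gene's strand, from RefSeq GRCh38.p14. Capitals mark matches to the CCAAT box, searched as CCAAT, and to the GC box, which was searched as GGGCGG. Both strands were searched, so a match on the opposite strand stands as its reverse complement.
APC outer promoter, chr5:112707248-112707547, plus strand: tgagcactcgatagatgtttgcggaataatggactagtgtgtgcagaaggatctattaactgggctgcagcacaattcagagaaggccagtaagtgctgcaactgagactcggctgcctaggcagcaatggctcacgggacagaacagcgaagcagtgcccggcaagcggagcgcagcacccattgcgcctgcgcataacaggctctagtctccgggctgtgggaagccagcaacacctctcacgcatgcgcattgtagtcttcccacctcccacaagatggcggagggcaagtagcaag
APC inner promoter, chr5:112737635-112737934, plus strand: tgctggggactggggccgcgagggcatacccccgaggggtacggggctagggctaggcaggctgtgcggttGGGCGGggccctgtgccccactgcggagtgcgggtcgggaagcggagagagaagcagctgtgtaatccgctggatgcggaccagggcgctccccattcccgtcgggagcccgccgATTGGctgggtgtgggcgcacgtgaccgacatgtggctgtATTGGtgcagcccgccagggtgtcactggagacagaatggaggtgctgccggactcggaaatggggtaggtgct
GSK3B promoter, chr3:120094398-120094697, minus strand: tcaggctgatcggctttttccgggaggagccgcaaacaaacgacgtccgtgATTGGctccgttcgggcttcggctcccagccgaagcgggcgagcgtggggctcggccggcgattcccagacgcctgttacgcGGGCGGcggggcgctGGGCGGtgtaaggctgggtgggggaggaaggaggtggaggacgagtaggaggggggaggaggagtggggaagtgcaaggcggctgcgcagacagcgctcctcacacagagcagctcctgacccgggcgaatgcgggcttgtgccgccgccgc
TCF7L2 internal promoter, chr10:113126383-113126682, plus strand: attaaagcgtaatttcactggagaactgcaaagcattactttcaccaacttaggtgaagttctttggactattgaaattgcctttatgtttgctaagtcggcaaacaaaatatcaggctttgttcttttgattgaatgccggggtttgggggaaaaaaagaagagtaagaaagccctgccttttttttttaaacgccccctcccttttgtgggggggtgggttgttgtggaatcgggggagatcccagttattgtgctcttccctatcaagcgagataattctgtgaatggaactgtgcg
GSK3A promoter, chr19:42242553-42242852, minus strand: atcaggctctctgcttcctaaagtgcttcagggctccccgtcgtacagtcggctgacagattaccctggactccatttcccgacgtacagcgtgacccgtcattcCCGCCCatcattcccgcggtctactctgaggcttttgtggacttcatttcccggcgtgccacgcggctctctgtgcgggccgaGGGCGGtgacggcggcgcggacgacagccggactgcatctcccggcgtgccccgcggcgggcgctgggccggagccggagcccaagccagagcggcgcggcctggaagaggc
RNF43 outer promoter, chr17:58417485-58417784, minus strand: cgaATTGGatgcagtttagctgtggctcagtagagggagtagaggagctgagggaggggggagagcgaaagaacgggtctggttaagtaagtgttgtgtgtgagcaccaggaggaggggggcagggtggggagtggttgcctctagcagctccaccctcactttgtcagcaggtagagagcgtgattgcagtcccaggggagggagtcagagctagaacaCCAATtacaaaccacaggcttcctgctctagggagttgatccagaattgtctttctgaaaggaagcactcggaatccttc

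Of the 10 genes, 8 had annotated starts in the RefSeq promoter table, with 13 promoters among them. For AXIN2 and ZNRF3 both gene ends were used in place of a start. The LEF/TCF core TCAAAG, searched on both strands and not overlapping either of the other motifs, was in none of the 13 promoters, and it was in 12.9% of all 34943 promoters of that length. A CCAAT box stood in 34.6% and a GC box in 44.9% of all promoters. The inner APC promoter held 2 CCAAT boxes and 1 GC box, and that of GSK3B 1 and 2. The outer APC promoter and the internal TCF7L2 promoter held neither motif. The GSK3A promoter held 2 GC boxes and 34 CpG dinucleotides, and the outer RNF43 promoter 2 CCAAT boxes and 5 CpG dinucleotides. The promoters that intervals reached in both libraries also differed in CpG dinucleotides, with 33 in GSK3B, 23 in the inner APC promoter, 14 in the outer one and 7 in the internal TCF7L2 promoter, against a median of 14 over all promoters. These matches describe letters in the window and name no bound factor.

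Each of the 10 genes had at least 1 summit within its span or 5 kb on either side in the overexpression library, and 9 had one in control, the exception being GSK3A. Over all protein-coding genes 87.2% had such a summit in the overexpression library, against 85.4% in control. The windows of the 10 genes were long, with a median of 103.3 kb against 34.17 kb over all genes, so a summit in nearly every one is close to the background. They held 65 summits in the overexpression library, against 86 in control, a ratio of 0.756 (95% counting interval 0.539 to 1.06). Across the windows of all protein-coding genes the ratio was 0.716. Per 100 kb, the 10 windows held 5.24 summits (4.04 to 6.68) in the overexpression library and 6.93 (5.55 to 8.56) in control, and all gene windows held 4.87 and 6.79 in the same libraries. The Wnt regulators as a group therefore stood close to the other genes in both libraries. With both lists limited to their 111569 summits of lowest p-value, the 10 windows held 65 overexpression and 54 control summits. This limit shortens the control list alone, so the control count could only fall. It cannot show which library had more summits at equal list length for other reasons.

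**Figure D1:**
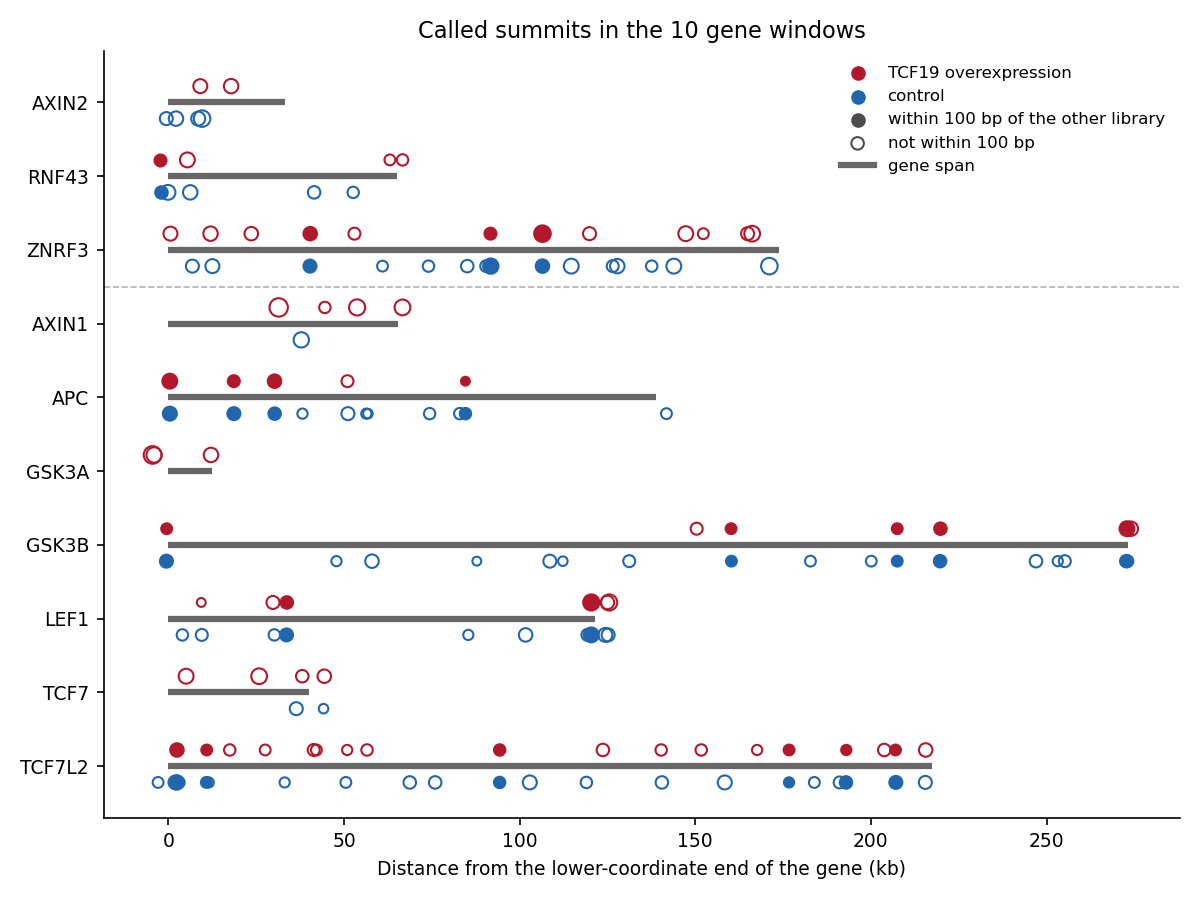
Positions of all 65 overexpression summits (above each gene bar) and 86 control summits (below it), as distance in kb from the lower-coordinate end of each gene, with symbol area proportional to pileup and filled symbols for summits within 100 bp of one in the other library. APC and GSK3B show filled symbols at their annotated starts (left end of APC, right end of GSK3B), while AXIN2, AXIN1, GSK3A and TCF7 have none.

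The negative feedback genes did not stand apart from the other members in how many summits they held. AXIN2, RNF43 and ZNRF3 together had 18 overexpression summits against 24 control summits, a ratio of 0.75 (0.384 to 1.44). The other 7 genes had 47 and 62 in the same libraries, a ratio of 0.758 (0.508 to 1.13). The number of summits relative to control was thus nearly the same in both sets. Per 100 kb, negative feedback genes held 5.96 summits and the others 5.01 in the overexpression library, a ratio of 1.19 (0.65 to 2.09). In control they held 7.95 and the others 6.61, a ratio of 1.2 (0.718 to 1.95). Both intervals include 1, and without GSK3B, the longest gene, the overexpression ratio turned to 0.976.

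Pooled over summits, median heights in the negative feedback genes were slightly above those of the other members. So was the median local background, the expected pileup from reads within 10 kb. Median pileups were 14 reads in the negative feedback genes and 12 in the others in the overexpression library, and 13.5 and 11 in control. Median local backgrounds were 2.51 and 1.93 reads in the overexpression library, and 2.9 and 1.73 in control. The fold enrichment, the authors' ratio of pileup plus 1 to local background plus 1, had medians of 4.12 in the negative feedback genes and 3.71 in the others in the overexpression list, and of 3.9 and 3.87 in the control list. Gene by gene the order was mixed in the overexpression library. Median pileups were 15.5 reads at AXIN2, 10.5 at RNF43 and 14 at ZNRF3. Among the others they were 19.5 at AXIN1, 18 at GSK3A, 15.5 at TCF7, 13.5 at LEF1, 11 at APC and GSK3B, and 10 at TCF7L2. Median local backgrounds ran from 1.79 (RNF43) to 3.33 (AXIN2) and, in the others, from 1.43 (APC) to 7.37 (AXIN1). The part of local background in the pooled pileup difference was not tested.

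**Figure D2:**
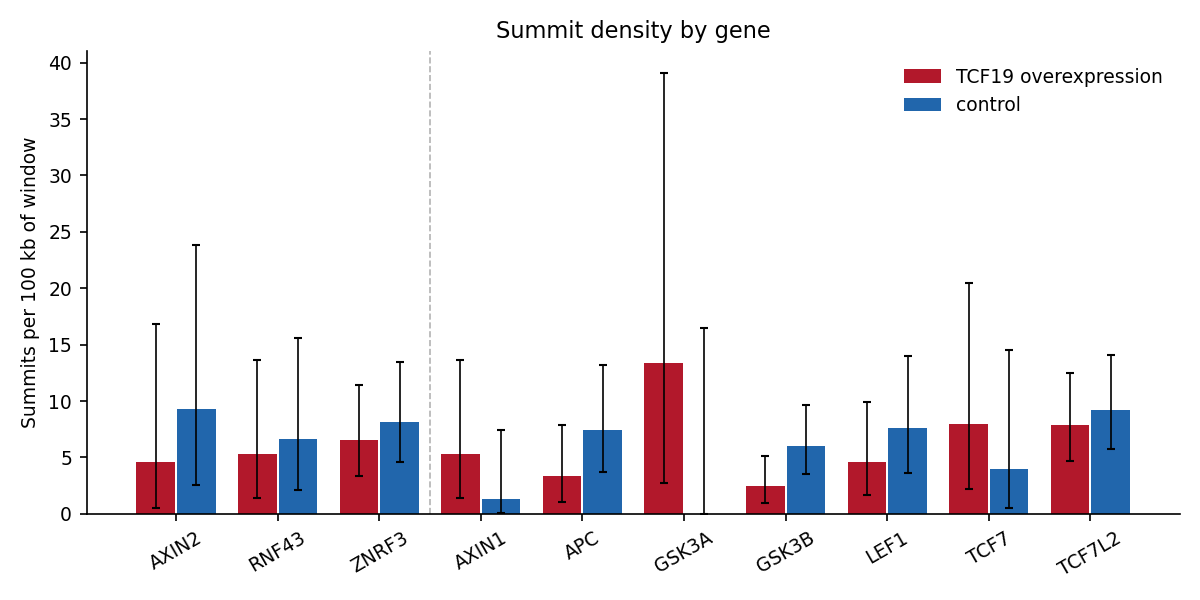
Summits per 100 kb of gene window (span plus 5 kb on each side) in the overexpression library (left bar of each pair) and control (right bar), with exact 95% Poisson counting intervals; the dashed line parts the negative feedback genes (left) from the others. TCF7L2 holds 7.91 and 9.23 summits per 100 kb, and the intervals of the 2 libraries overlap at each gene.

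AXIN2, the inducible scaffold of the destruction complex (chromosome 17, 65528563 to 65561648), had 2 summits in the overexpression library, against 4 in control. The overexpression summits held 15 reads at 65537659 and 16 reads at 65546424. The control summits held 13 reads at 65527982, 16 at 65530736, 15 at 65537052 and 21 at 65538161. No summit was shared within 100 bp, although the wide overexpression interval around 65537659, of 1107 bp, overlapped the control intervals at 65537052 and 65538161. The summit at 65546424, with 16 reads (counting interval 9.15 to 26.0) over a local background of 2.15, would have been called in control with a probability of 99.7% at equal occupancy. That value, like those given for other genes below, takes the summit's own pileup and local background as true. It is too high where the summit was picked as a maximum. The control summits called in AXIN2 had a median local background of 4.75 reads. The control summit at 65527982 lay 581 bp outside the lower-coordinate end of the gene, and the nearest summits to the higher end were 15224 bp away in the overexpression library and 15755 bp away in control.

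RNF43 (chromosome 17, 58352500 to 58417534, minus strand) had 4 summits in the overexpression library, against 5 in control. In the overexpression library they held 11, 17, 9 and 10 reads at 58350227, 58357911, 58415572 and 58419165. In control they held 12, 17, 16, 12 and 10 reads at 58350278, 58352390, 58358728, 58393987 and 58405122. The heights overlapped, and a single site, in the lower flank inside the neighbouring genes SUPT4H1 and TSPOAP1-AS1, was shared by both libraries. The overexpression library had summits on either side of the outer start, 1962 bp downstream and 1631 bp upstream of it, but none within 1 kb. The nearest control summit to that start was 7593 bp upstream. The control summit at 58352390 lay 65144 bp from the outer start, just beyond the far end of RNF43 and within 1 kb of an end of SUPT4H1, which encodes a transcription elongation factor.

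ZNRF3, the paralogue of RNF43 (chromosome 22, 28883572 to 29057488), carried the most summits of the negative feedback genes, with 12 in the overexpression library and 15 in control. Pileups ran from 9 to 21 reads with a median of 14 in the overexpression library, and from 9 to 21 with a median of 13 in control. The ranges were the same, and 3 sites were shared within 100 bp. At the shared site of 28990119 the overexpression summit had 21 reads and the control summit 14, while at 28975273 the overexpression summit had 11 reads and the control summit 18. The counting intervals of both log2 ratios include 0 (0.73, −0.31 to 1.82, and −0.56, −1.79 to 0.60). A summit of 15 reads (8.40 to 24.7) at 28884170, 598 bp inside the lower-coordinate end, was called in the overexpression library alone, and the nearest control summit to that end was 6846 bp away. An equal occupancy there would have been called in control with a probability of 96.8%.

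APC, the tumour suppressor that scaffolds the destruction complex (chromosome 5, 112707498 to 112846239, plus strand), had most of its overexpression summits matched in control. It had 5 summits in the overexpression library, of 17, 11, 14, 11 and 6 reads, and 11 in control, of 7 to 15 reads with a median of 10. Of the 5 overexpression summits, 4 lay 7 to 31 bp from a control summit, and the intervals around the other overlapped one as well. At the outer start the summits held 17 reads (9.90 to 27.2) in the overexpression library and 15 (8.40 to 24.7) in control, 409 and 424 bp downstream of the start. At the inner start they held 14 reads (7.65 to 23.5) in the overexpression library and 12 (6.20 to 21.0) in control, 157 and 126 bp upstream, inside the inner promoter printed above. Both starts of APC were thus marked in both libraries at heights that differed by less than counting error. Local background was low here, with medians of 1.43 reads in the overexpression library and 1.58 in control, which equal the genome averages.

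The paralogous kinases GSK3A and GSK3B differed in their summits. GSK3B (chromosome 3, 119821321 to 120094447, minus strand) had 7 summits of 9 to 17 reads in the overexpression library (median 11) and 17 of 6 to 14 reads in control (median 11). The ratio of counts, 0.412 (0.144 to 1.04), was below that of chromosome 3 as a whole, 0.615, which lies inside its interval. At the start the overexpression library had 17 reads 241 bp downstream and 16 reads 847 bp upstream, the second inside the divergent transcript GSK3B-DT. Control had 12 reads 431 bp and 11 reads 155 bp downstream, both within a single interval of 760 bp. Both libraries thus marked the GSK3B start, and the upstream summit was called in the overexpression library alone.

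GSK3A (chromosome 19, 42230190 to 42242602, minus strand) had 3 summits in the overexpression library, against 0 in control, a state found in 6.39% of protein-coding genes. One summit, of 16 reads (9.15 to 26.0) over a local background of 4.58, lay 283 bp downstream of the start. The others, of 24 and 18 reads, lay in the lower flank inside the zinc finger gene ZNF526 and shared 1 interval of 949 bp, so they cannot be assigned to GSK3A. An equal occupancy at the start would have been called in control with a probability of 89.8%. The nearest control summit was 25721 bp away. With 3 summits against 0, the counting error does not allow a ratio to be given, and on chromosome 19 the lists were nearly equal in length (ratio 1.01).

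AXIN1, the constitutive scaffold (chromosome 16, 287440 to 352723, minus strand), had 4 summits in the overexpression library, against 1 in control. The overexpression summits held 26, 10, 20 and 19 reads at 318855, 331997, 341182 and 354088, and the control summit held 18 reads at 325280. No summit was shared, and the height of 26 reads (17.0 to 38.1) was the greatest among the 10 genes. Folds were low, 3.08 at most in the overexpression list and 2.26 in the control list, beside local backgrounds with medians of 7.37 and 7.40 reads. The ratio of counts, 4.0, has an interval of 0.396 to 197. The summit nearest to the start lay 1365 bp upstream, in the overexpression library.

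TCF7L2 (chromosome 10, 112950247 to 113167678, plus strand) is the longest of the 3 LEF/TCF genes among the members. It held 18 overexpression and 21 control summits, the most of any member. Pileups ran from 8 to 14 reads with a median of 10 in the overexpression library, and from 8 to 16 with a median of 11 in control. The heights overlapped throughout, and 6 sites were shared within 100 bp. One shared site lay 331 bp (9 reads, overexpression) and 286 bp (8 reads, control) downstream of an internal start at 113126633. The outer start at 112950247 had no summit within 1 kb, and the nearest were 2445 bp downstream in the overexpression library and 1962 bp downstream in control, with 14 reads each.

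LEF1 (chromosome 4, 108047548 to 108168932, minus strand) had 6 summits in the overexpression library, of 6 to 20 reads with a median of 13.5, and 10 in control, of 8 to 17 reads with a median of 12. The highest shared site held 20 reads (12.2 to 30.9) at 108167942 in the overexpression library and 17 reads (9.90 to 27.2) at 108167925 in control. It lay 1641 and 1624 bp upstream of the annotated start, inside the antisense gene LEF1-AS1, so it cannot be assigned to either gene. A control summit of 11 reads lay 513 bp upstream of the annotated start, and no overexpression summit came within 1 kb of that start. The start, at 108166301, lies inside the gene span. The shared site lay 990 bp (overexpression) and 1007 bp (control) inside the higher-coordinate end. Which library has a summit within 1 kb therefore depends on the start used. The control summit of 11 reads would have been called in the overexpression library with a probability of 65.9% at equal occupancy, so depth limits what its absence shows.

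TCF7 (chromosome 5, 134108218 to 134148210, plus strand), a LEF/TCF factor best known from T cells, had 4 overexpression summits of 17, 19, 12 and 14 reads and 2 control summits of 13 and 7 reads. None was shared within 100 bp, and none lay within 2 kb of an annotated start. The overexpression summit at 134113272 lies inside VDAC1 and the flank summits of both libraries, at 134152607 and 134152390, inside SKP1. Their intervals overlapped, although the summits were not within 100 bp. The ratio of counts, 2.0, has an interval of 0.287 to 22.1.

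**Figure D3:**
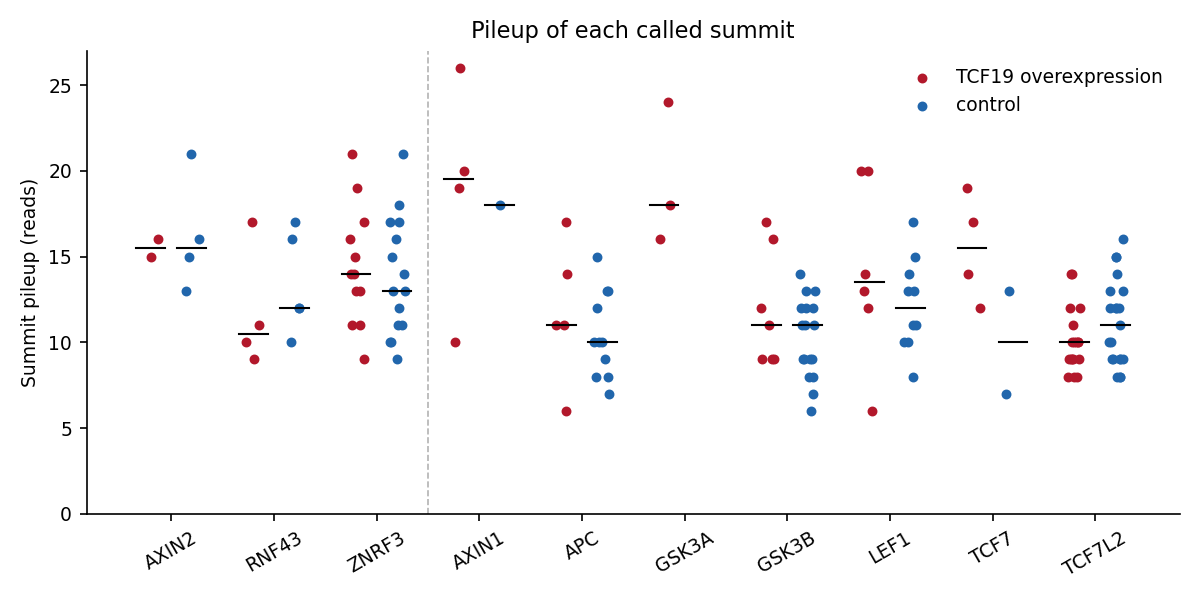
Pileup in reads of each called summit by gene, in the overexpression library (left points of each pair) and control (right points); horizontal lines are medians and the dashed line parts the negative feedback genes from the others. The heights of the libraries overlap in each of the 9 genes with summits in both. The highest summits, of 26 and 24 reads in the overexpression library, are in the windows of AXIN1 and GSK3A. That of 24 reads lies in the flank of GSK3A, inside ZNF526.

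AXIN1, GSK3A and TCF7 were the 3 members with more summits in the overexpression library than in control, a state of 26.6% of all protein-coding genes, and the other 7 had fewer, as did 48.8% of all genes. These 3 genes also had the highest median local background among the members in the overexpression library, 7.37 reads at AXIN1, 5.77 at GSK3A and 4.43 at TCF7. Of their overexpression summits, 2 at GSK3A and 2 at TCF7 lay inside neighbouring genes. The GSK3A median is the value of a summit inside ZNF526, and the summit at the GSK3A start had a local background of 4.58 reads. The other 7 genes lay between 1.43 reads at APC and 3.53 at LEF1. The order was not the same in control, where AXIN1 had 7.40 reads, AXIN2 4.75 and TCF7 3.37, and GSK3A had no summit to give a value. The part of local read density in these counts was not tested.

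Near transcription starts 5 of the 10 genes in each library had a summit within 1 kb of an annotated start, or of a gene end for AXIN2 and ZNRF3. Among all protein-coding genes the share was 64.9% in the overexpression library and 53.5% in control. APC, GSK3B and TCF7L2 had one in both libraries, a state of 48.8% of genes. ZNRF3 and GSK3A had one in the overexpression library alone (16.1% of genes), AXIN2 and LEF1 in control alone (4.75%), and RNF43, AXIN1 and TCF7 in neither (30.4%). Of the negative feedback genes, ZNRF3 had one in the overexpression library and AXIN2 in control, each at the lower-coordinate end. For these genes no annotated start was at hand, so that end need not be the start. At AXIN2 the nearest control summit to the higher end was 15755 bp away. LEF1 was counted from its annotated start, which lies inside the gene span. Of the others 4 of 7 had one in each library. Within 2 kb the count was 8 in the overexpression library, where RNF43, AXIN1 and LEF1 were added, and 5 in control, against 70.1% and 60.6% of all genes. With both lists limited to the same number of summits, the counts within 1 kb were 5 in the overexpression library and 2 in control. Over all genes the shares were then 64.9% and 38.5% in the same libraries. The control summits at AXIN2, LEF1 and TCF7L2 were no longer in the list. This limit shortens the control list alone, so the control count could only fall.

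Summits shared between libraries numbered 21, in 6 of the 10 genes. They made up 32.3% of the 65 overexpression summits (Wilson interval 22.2 to 44.4) and 24.4% of the 86 control summits (16.6 to 34.5). Over all summits the shares were 36.8% and 24.2%, so by the 100 bp rule sharing in the Wnt regulators was close to the background. In the negative feedback genes 22.2% (9.0 to 45.2) of overexpression and 16.7% (6.68 to 35.9) of control summits were shared, and in the other genes 36.2% (24.0 to 50.5) and 27.4% (17.9 to 39.6). These intervals overlap. By overlap of intervals rather than summits, 31 overexpression and 33 control summits had a counterpart. The sets lay further apart by this rule. In the overexpression library 27.8% of summits in the negative feedback genes and 55.3% in the other genes had one. In control the shares were 25.0% and 43.5%, and the difference was not tested. With neither a partner within 100 bp nor an overlapping interval there were 34 of the 65 overexpression and 53 of the 86 control summits. Over all chromosomes used, 34268 of 111569 overexpression and 92213 of 169542 control summits had neither. By this wider rule a smaller part of the summits had a counterpart in the 10 genes than over all summits, above all in the overexpression library. Closeness to the background thus held for the 100 bp rule only. All summits here include those outside gene windows, and the difference was not tested. Of the 34 overexpression summits in the 10 genes, 15 (44.1%) had a probability of at least 95% of being called in control at equal occupancy. The share was 39.3% of all such overexpression summits. Of the 53 control summits, 10 (18.9%) had it in the overexpression library, against 14.4% of all such control summits.

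At the 21 shared sites the pileups did not differ beyond counting error. After scaling by the genome average, the overexpression pileup was above the control pileup at 14 sites and below it at 7. This split rests on the scaling, which adds 0.147 to each log2 ratio: in unscaled reads the overexpression library had more at 7 sites, the same number at 5 and fewer at 9. By the authors' fold enrichment the mean log2 ratio over these sites was 0.00049. The log2 ratios, overexpression over control, ran from −0.59 to 0.78 with a median of 0.15, and 0 of 21 counting intervals left out 0. Over all 41021 pairs the median was 0.15 as well, and 1.81% of intervals left out 0. Summed over the 21 sites, 252 reads in the overexpression library and 259 in control gave a log2 ratio of 0.11 (−0.15 to 0.36). The largest ratio, 0.78 (−0.40 to 2.02), was at the GSK3B start, with 17 reads in the overexpression library and 11 in control. Differences of this size at a single site were not detectable at this depth.

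**Figure D4:**
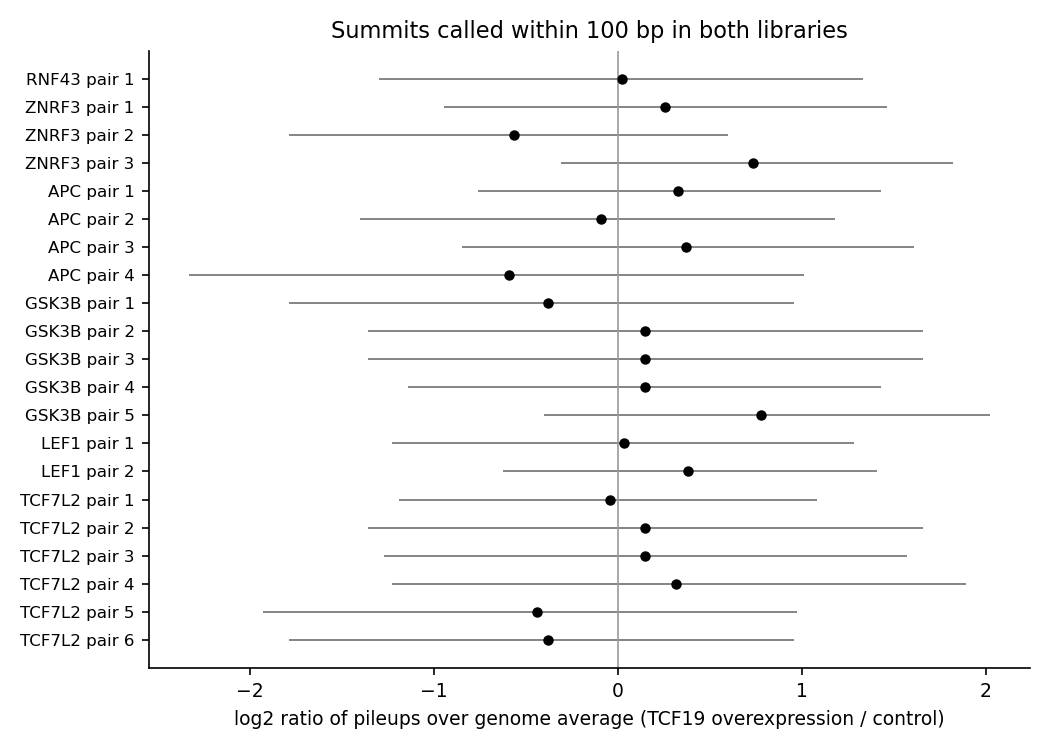
Log2 ratio of summit pileups, each over its library's genome average, for TCF19 overexpression over control at the 21 sites called within 100 bp in both libraries; bars are exact 95% conditional binomial counting intervals. Points lie between −0.59 and 0.78 and every bar crosses 0.

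Beyond these 10 genes, 76 other Wnt pathway genes were counted by role, and 52 had a summit near the start in the overexpression library (68.4%) against 50 in control (65.8%). Over all protein-coding genes the shares were 64.9% (overexpression) and 53.5% (control). A summit in both lists was found at 45 of the 76 genes (48.8% of all genes were in this state), in the overexpression list alone at 7 (16.1%), in the control list alone at 5 (4.75%) and in neither at 19 (30.4%). Ligand genes had the smallest share in the overexpression library, 8 of 19 against 9 of 19 in control. Receptors, co-receptors and R-spondins had 15 and 16 of 19 in the same libraries, and inhibitors and scaffolds 13 and 14 of 19. The group of TCF7L1 and the nuclear partners of β-catenin and LEF/TCF had 9 and 8 of 10. Signal transducers (Dishevelled, casein kinase 1 and β-catenin genes) had 5 of 7 in the overexpression library and 2 of 7 in control. The highest pileups near a start in the overexpression library were at RSPO4, an R-spondin that protects Frizzled receptors from RNF43 and ZNRF3, with 30 reads against 23 in control, at the co-receptor gene LRP6 with 29 against 15, and at the secreted inhibitor gene WIF1 with 28 against 18. In control they were at the ligand gene WNT1, with 24 reads in the overexpression library and 28 in control, at RSPO4, and at TCF7L1 and SFRP4, with 24 and 22 reads in the overexpression library and 22 each in control. At each of these genes the counting intervals of the pileups in both libraries overlapped. Such overlap is a looser rule than the interval of the ratio given at the shared sites. Whether any of these genes differed beyond counting error was not tested. The highest summits lay within 100 bp of each other at LRP6 (12266934 in the overexpression library, 12266945 in control) and WIF1 (65121333 and 65121295). They lay further apart at RSPO4, WNT1, TCF7L1 and SFRP4.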

How the data were processed

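Reads were aligned with BWA 0.7.12 and peaks called with MACS2 2.1.0 on hg38, per the submitters' processing notes; the caller's settings, and whether an input was sequenced, are not stated there. Peaks were called per library. The deposited lists give each summit a score (the whole-number part of 10 times the −log10 q-value at 100.0% of overexpression and 99.998% of control summits), a fold enrichment (the authors' ratio, which fits pileup plus 1 over local background plus 1), a −log10 p-value and a −log10 q-value, with q at most 0.05. The deposited start, end and summit offset are positions in bp. Pileup and local background were solved from fold and p (misfit at most 0.001), which failed at 4 overexpression and 5 control summits, none of them in the windows described. The background above its floor was a whole number of the library's own reads in 10 kb at fragment lengths of 276 bp (overexpression) and 273 bp (control), so the folds show no sign of an input correction. The recovery was tested on simulated data.

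A summit was counted for a gene within its RefSeq GRCh38.p14 span and 5 kb either side, and near a start within 1 kb. Summits within 100 bp were taken as shared. Intervals are exact Poisson for pileups and densities, Wilson for shares and conditional binomial for ratios, at 95%, and cover counting error only; reads may hold PCR copies. The probability of a call in the other library used a summit's own pileup and local background scaled by genome averages, not the other library's local background, and is too high where a summit was picked as a maximum. Starts came from the RefSeq promoter table, which held 15813 of 19974 protein-coding genes; both gene ends served for the rest. Gene members, lists and windows were chosen with earlier results of these data known. All 10 genes were named, and of the other Wnt genes those with the 3 highest pileups near a start, ties included. Exons and introns were not separated. Python 3.11.15 and scipy 1.17.1 were used.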

Additional observations from a re-analysis of the deposited data

How the results depend on the processing

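With 1 library per group no value has a replicate check, and depth leaves single summits of 6 to 26 reads with wide counting intervals. Of 59 recomputed values, 49 stayed within 1.5 times a count or within the counting interval of a share or ratio, and 10 moved. The direction turned for 1 of 26 density ratios, 0.976 without GSK3B in the overexpression library, where the interval of the full ratio includes 1, and for the order of the libraries in summit count with equal lists, 65 (overexpression) and 54 (control). Limited to fold of at least 4, the summits numbered 29 (overexpression) and 34 (control), and genes with one near the start 3 and 2. With both lists limited to 111569 summits, control held 54 summits in the windows, 2 genes with one near the start and 35.2% of summits shared; this removes control summits by construction. A window of 2 kb gave 8 genes near a start in the overexpression library. By overlap of intervals, 47.7% of overexpression and 38.4% of control summits were shared. The density of negative feedback genes over the others ranged from 0.976 to 1.46 in the overexpression library and from 1.12 to 1.69 in control; leaving out single genes, except AXIN2, was added after the data were seen. No paired analysis was possible because each group has 1 library.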
